A study of Mus musculus with 12 samples.

Results

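The proteasome subunit genes were followed here across 12 brainstem libraries of mouse pups. They were taken by name, as the genes whose symbol is Psma, Psmb, Psmc or Psmd followed by a number, without the immunoproteasome genes Psmb8, Psmb9 and Psmb10, which gave 36 of the 55418 genes in the count table. Of these, 8 belong to the alpha ring, 8 to the beta ring, 6 to the ATPase ring, 3 to the rest of the base, 8 to the lid, and 3 encode chaperone-like factors that help to assemble the base.

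The proteasome is the protease that degrades proteins tagged with ubiquitin. Its barrel-shaped core is built of alpha rings, which form the gate, and of beta rings, which hold the catalytic sites, and a regulatory particle made of a base and a lid binds the tagged protein, removes the ubiquitin and unfolds the chain with the ATPases of the base. Neurons rely on it for the turnover of synaptic proteins, and the transcription factor Nfe2l1 is known to raise the expression of its subunits together when proteasome activity falls.

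The mice were outbred Swiss Webster Cartworth Farms White (CFW) pups, and RNA was taken from the brainstem (medulla and pons) on postnatal day 15, 16 h after the last injection. Pups received 15 mg/kg morphine or saline 2 times per day from postnatal day 1 to 14, so the morphine pups were in spontaneous withdrawal when the tissue was collected. There were 3 saline females, 3 morphine females, 3 saline males and 3 morphine males, with 1 library per mouse. The total count per library ran from 27850565 to 48097947, with a median of 33214511, and 0.303% to 0.385% of it fell on the 36 genes. One label, that of the extraction, speaks of spinal cords although the tissue label is brainstem. The 7 hindbrain markers summed to 543 to 712 counts per 1000000 counts of the library (CPM) against 7.05 to 13.3 CPM for the 3 forebrain markers. That contrast sets hindbrain against forebrain. No list of spinal cord markers was measured, so it cannot tell brainstem from spinal cord. The study assigned pups of the same litter to saline or morphine at random. Litter is not in the labels, so littermates could not be told from unrelated pups, and in whole tissue fewer cells of a type and less RNA per cell cannot be told apart.

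Several libraries stood apart before any comparison. The library labelled morphine male 6 carried the X-inactivation transcript Xist at 379.9 CPM, against 547 to 970 CPM in the 6 libraries labelled female and at most 2.71 CPM in the other males. The Y-linked gene Ddx3y was at 12.8 CPM there and between 118 and 199 CPM in the other 5 libraries labelled male, so the main results of the males are given below with and without this library. Libraries also differed in how levels varied with the GC content of transcripts. Over 19027 genes, the log2 level relative to the mean of the 12 libraries changed per 10 percentage points of GC content by 0.39 in saline male 1 and 0.51 in saline male 2, by 0.23 in the library labelled morphine male 6, by -0.47 in saline male 3 and by -0.29 in saline female 6. In the other 7 libraries this GC slope lay between -0.14 and 0.05.

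The stretches before the start sites of a few members are printed first, because these members carry the results below and Nfe2l1 and its relatives bind elements of this kind. Windows of 250 bases before to 50 after each start site were in RefSeq (GRCm38.p6) for 29 of the 36 genes, and 7 (Psmb1, Psmb2, Psmb7, Psma8, Psmc3, Psmd3 and Psmd7) had none. Both strands were searched for TGACNNNGC, the core of the antioxidant response element, for the box CCAAT, and for CCGGAAG, a core bound by ETS factors. The element TGACNNNGC was found for 5 members (Psmb5, Psmb6, Psmc6, Psmd9 and Psmd12), in 16.1% of 31 member windows and in 12.4% of the 32851 windows of all genes. The letters CCAAT were in 38.7% of member windows and in 37.4% of all windows, and CCGGAAG in 35.5% and in 8.86%. Member windows were richer in GC than all windows, with a median of 56.7% against 52.7%. A match is only a run of letters, not evidence of binding. The last 100 bases before the start are shown for the catalytic subunits Psmb5 (chr14:54617996-54618095, minus strand) and Psmb6 (chr11:70525257-70525356, plus strand), for Psmd9 (chr5:123228090-123228189, plus strand), and for Psmd11 (chr11:80428515-80428614, plus strand), the member that varied least between libraries. Capitals mark the match, which is TGACNNNGC in the first 3 and the reverse complement of CCGGAAG in Psmd11.
Psmb5: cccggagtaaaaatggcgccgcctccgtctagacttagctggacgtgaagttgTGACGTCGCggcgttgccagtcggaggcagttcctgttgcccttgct
Psmb6: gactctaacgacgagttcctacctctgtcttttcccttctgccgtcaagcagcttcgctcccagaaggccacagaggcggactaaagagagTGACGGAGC
Psmd9: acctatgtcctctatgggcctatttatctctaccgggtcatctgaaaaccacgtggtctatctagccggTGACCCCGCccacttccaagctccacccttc
Psmd11: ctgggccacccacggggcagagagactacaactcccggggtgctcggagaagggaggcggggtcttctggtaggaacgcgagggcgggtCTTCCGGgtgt

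Nearly all proteasome subunits were expressed in every brainstem. Of the 36 genes, 34 had at least 100 counts in every library. Psma8, the alpha subunit of testis, had a mean of 0.571 ± 0.189 CPM (SD, n = 12; 13 to 29 counts per library), and Psmb11, the catalytic beta subunit of the thymus, had 0.254 ± 0.118 CPM (SD, n = 12; 3 to 21 counts). Differences in these 2 genes rest on few reads, and the transcript of Psmb11 also shares a stretch of at least 100 bases at 95% identity or more with 41 other genes. The count on its own was highest for the base subunit Psmd2, at 274 ± 24.7 CPM (SD, n = 12).

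**Figure D1:**
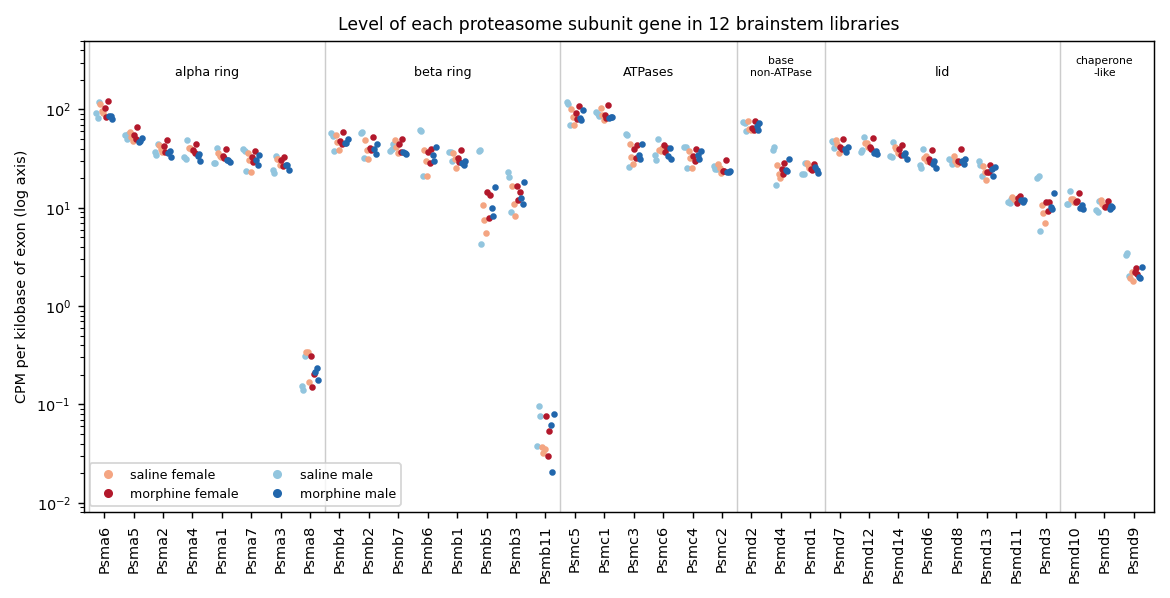
Level of each of the 36 genes in CPM per kilobase of exon (log axis), 1 point per library, grouped by role and ordered by mean within each role; colours give treatment and sex. Psma8 and Psmb11 lie far below the rest. Among the other 34, Psmd9 is the lowest, and Psmb5 and Psmd3 have the widest scatter.

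Levels between genes are compared per kilobase of exon, as CPM per kilobase, over the 34 well-counted members. The exon length is that of all annotated transcripts of a gene joined, which can exceed the length of the expressed transcript. Rankings per kilobase depend on it. The alpha ring subunits spanned 28.3 (Psma3) to 96.3 (Psma6) CPM per kilobase. In the beta ring, the structural subunit Psmb4 was highest with 48.5 ± 6.88 CPM per kilobase (SD, n = 12) and Psmb3 and Psmb5 were lowest with 14.5 each. The 3 catalytic subunits thus differed in level per kilobase, with 40.7 ± 5.17 for Psmb7 (trypsin-like activity), 37.0 ± 13.1 for Psmb6 (caspase-like activity) and 14.5 ± 11.6 for Psmb5 (chymotrypsin-like activity), so that the SD was largest relative to the mean for Psmb5. Among the ATPases that unfold the substrate, Psmc5 (91.2) and Psmc1 (89.1) had the highest level per kilobase and Psmc2 (25.0) the lowest. Before division by exon length, Psmc5 (127 CPM, 1394 bases) and Psmc2 (126 CPM, 5031 bases) were nearly equal. Among the other base subunits, the scaffold Psmd2 reached 67.8 CPM per kilobase, while the scaffold Psmd1 had 25.3 and the ubiquitin receptor Psmd4 had 26.8. The lid ran from 11.6 (Psmd3) to 43.0 (Psmd7) CPM per kilobase, with Psmd14, the subunit that cleaves ubiquitin off, at 37.5. The assembly chaperones were low per kilobase, with 11.7 for Psmd10, 10.5 for Psmd5 and 2.32 ± 0.534 (SD, n = 12) for Psmd9. In CPM alone Psmd5 had 75.7, Psmd10 had 17.1 and Psmd9 had 16.8. Their exon lengths were 7230, 1469 and 7248 bases.

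Within most roles, well-counted members differed several-fold in level per kilobase, which reflects annotated exon length as well as counts. Shared sequence bears most on the level of Psmb5. The gene lies at chr14:54614119-54618022 (GRCm38, minus strand), and its transcript matches the processed pseudogene Gm3375 (chr7:3181093-3181888, plus strand) at 98.9% identity over 796 bases. Reads from one can therefore be lost or assigned to the other. Psmb5 had 5599 counts in the 12 libraries and Gm3375 had 5048. Exon sequence on the opposite strand was also shared by Psmb7 with Nek6 (405 bases), by Psmc3 with Slc39a13 (215 bases) and by Psmd13 with Sirt3 (342 bases), and whether the counting used strand is not given in the sources used here.

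Variation between libraries was uneven across the complex. The ratio of the highest to the lowest library was at least 2 in 6 of the 34 well-counted members and under 1.5 in 15, with a median of 1.51. The lid subunit Psmd11 had the smallest ratio, 1.17, with libraries between 71.2 and 83.6 CPM. The largest belonged to Psmb5 (9.02), Psmd3 (3.62), Psmb6 (2.97), Psmb3 (2.81), Psmd4 (2.43) and Psmc3 (2.16), of which 3 are beta subunits, 1 is a lid subunit, 1 a ubiquitin receptor and 1 an ATPase.

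**Figure D2:**
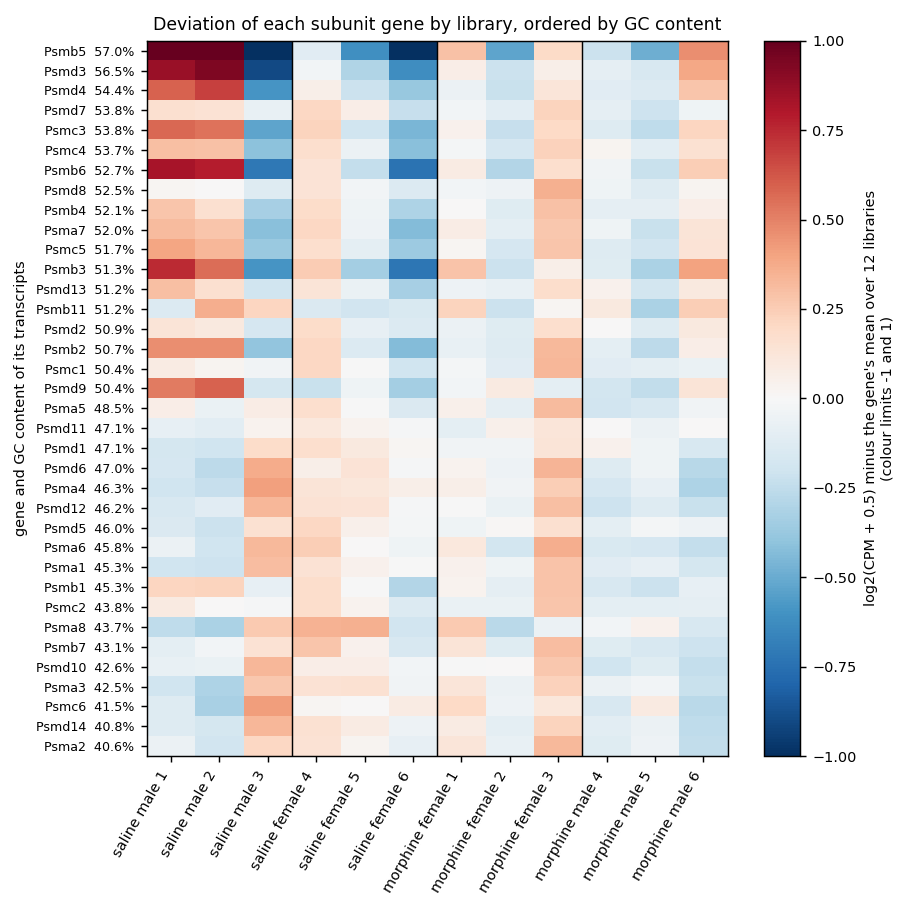
Log2(CPM + 0.5) of each of the 36 genes minus its mean over the 12 libraries, with genes ordered from high to low GC content of their transcripts and libraries in the order of the labels; red is above and blue below the mean, and colours saturate at -1 and 1. GC-rich members were high in saline males 1 and 2 and low in saline male 3 and saline female 6, and GC-poor members were mostly on the opposite side in the saline males.

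All 6 were GC-rich, with transcripts of 51.3% to 57.0% GC, but other members in that range varied less. Among them, the ratio was 1.37 for Psmd7 (53.8% GC), 1.41 for Psmd8 (52.5%), 1.55 for Psmb4 (52.1%) and 1.65 for Psmc4 (53.7%). Transcript GC content ran from 40.6% (Psma2) to 57.0% (Psmb5) among the members, with a median of 49.5%. The summed level of the 18 members above that median, divided by that of the 18 below, was 1.12 in saline male 1 and 1.14 in saline male 2 but 0.575 in saline male 3. It was 1.02 in the library labelled morphine male 6, and in the remaining 8 libraries it lay between 0.688 and 0.854. The 4 outlying values fell in the 3 libraries with the largest GC slopes and in the 1 with the smallest. Counts of other groups moved with the same libraries. The 89 genes of cytosolic ribosomal proteins summed to 10461 and 10074 CPM in saline males 1 and 2, 6034 CPM in saline male 3, and 5738 to 8769 CPM in the other 9 libraries. The 5 oligodendrocyte markers summed to 54459 and 56686 CPM in saline males 1 and 2 and 36653 CPM in saline male 3, and to 31420 to 46500 CPM elsewhere. The part of these differences in the levels of the subunits was not tested.

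In the sex-combined comparison, which asked what morphine exposure changed irrespective of sex, no subunit gene passed the test between the 6 morphine and 6 saline mice. A gene was called where the unadjusted p of edgeR's quasi-likelihood test was below 0.05 and the absolute log2 fold change was above 0.26, and 0 of 36 members were called, against 1.19% of the 18608 genes tested. At an unadjusted p under 0.05 alone the count was also 0, against 1.32% of all genes, and DESeq2 and exactTest called 0 as well. The median log2 fold change (morphine minus saline) of the members was -0.03, beside -0.02 over all genes tested, with 7 members above 0 and 29 below. With scaling by total counts the members' median was 0.01, with 20 above 0 and 16 below. No gene of the table had an adjusted p (Benjamini-Hochberg) under 0.05 in this comparison. The extremes among the members were -0.32 (SE 0.49) for Psmb5 and 0.08 (SE 0.38) for the barely counted Psmb11, both within 1 SE, and the groups of 6 overlapped for every member, beside 0.043% of all genes whose groups did not.

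Among the catalytic subunits, Psmb5 in saline mice had a lowest value of 3.86 CPM and a highest of 34.8, and in morphine mice it lay between 7.12 and 14.6, with means of 15.6 ± 14.6 and 10.5 ± 3.13 CPM (SD, n = 6 each). The saline range contained the whole morphine range. Psmb6 lay between 39.1 and 116 CPM in saline mice and between 53.5 and 78.0 CPM in morphine mice, with means of 72.7 ± 34.8 and 65.8 ± 9.67 CPM (SD, n = 6 each). Psmb7, which is GC-poor (43.1%), had means of 142 ± 16.3 CPM in saline and 137 ± 20.2 CPM in morphine mice (SD, n = 6 each), so its spread was alike in both. Log2 fold changes were -0.09 (SE 0.25) for Psmb6 and -0.05 (SE 0.10) for Psmb7. Without saline males 1 and 2 and the library labelled morphine male 6, the 3 libraries with the largest GC slopes, the value of Psmb5 turned to 0.71 (edgeR adjusted p = 0.416) and that of Psmb6 to 0.33 (edgeR adjusted p = 0.42). Those libraries also hold the 3 highest values of Psmb5, and saline male 3 is then the only saline male. The cause of the turn was not tested. In that fit, added after seeing the data, 3 members were called higher (Psmb5, Psmb6 and Psmd3), while 9.25% of all genes tested were called.

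**Figure D3:**
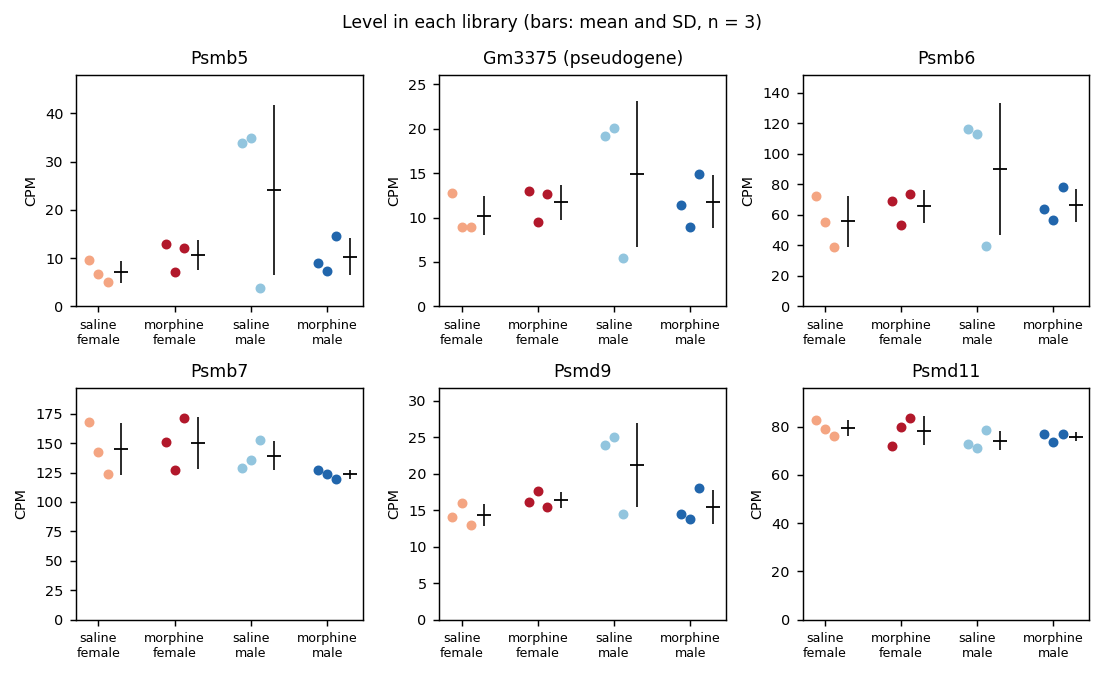
CPM (linear axis from 0) of the catalytic subunits Psmb5, Psmb6 and Psmb7, of the Psmb5 pseudogene Gm3375, of Psmd9 and of Psmd11 in each library, with the mean and SD of each group of 3 beside the points. Saline males 1 and 2 were high and saline male 3 was low for Psmb5, Gm3375 and Psmb6, whereas Psmd11 stayed between 71.2 and 83.6 CPM.

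In females, 0 of 35 tested members were called in the comparison of 3 morphine with 3 saline mice, beside 1.81% of 18109 genes, and Psmb11 did not pass the filter on low counts. The count at an unadjusted p under 0.05 was 0 with edgeR, beside 1.89% of all genes, and 1 member, Psmb5, was called by DESeq2 and by exactTest. Most members lay slightly above 0. Of the 35, 29 had a positive log2 fold change, and the median was 0.06, beside -0.01 over all genes tested. The 7 tested beta subunits were all above 0, with a median of 0.15, as were the 6 ATPases, with a median of 0.08. These values describe the same 6 mice and were not tested as a group, and the sign of the median turned without morphine female 3 (-0.04) and with the GC slope of each library as a covariate (-0.05). Without saline female 4, 5 members were called higher (Psmb3, Psmb5, Psmb6, Psmc3 and Psmd3) beside 7.95% of all genes, and without morphine female 2 there were 2 (Psmb5 and Psmd3) beside 3.73%. Groups overlapped for every member, beside 5.65% of all genes whose groups did not.

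Psmb5 had the largest difference of the members in females. Saline females had 9.64, 6.69 and 4.98 CPM and morphine females 12.9, 7.12 and 12.0 CPM. Morphine female 2 thus fell among the saline values, and the log2 fold change of 0.58 (SE 0.27) did not pass the test (edgeR adjusted p = 1.00). With the pseudogene counted in, a choice made after seeing the data, the value was 0.37 (SE 0.20), and with each library's GC slope as a covariate it was 0.30 (SE 0.18). Psmb6 had 72.1, 55.5 and 39.1 CPM in saline and 69.3, 53.5 and 73.6 CPM in morphine females, a log2 fold change of 0.23 (SE 0.19). Psmb3 and Psmd3 each had 0.27 (SE 0.22 and 0.14). For the core subunit Psmb7 it was 0.05 (SE 0.13), and for the barely counted Psma8 it was -0.36 (SE 0.42).

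**Figure D4:**
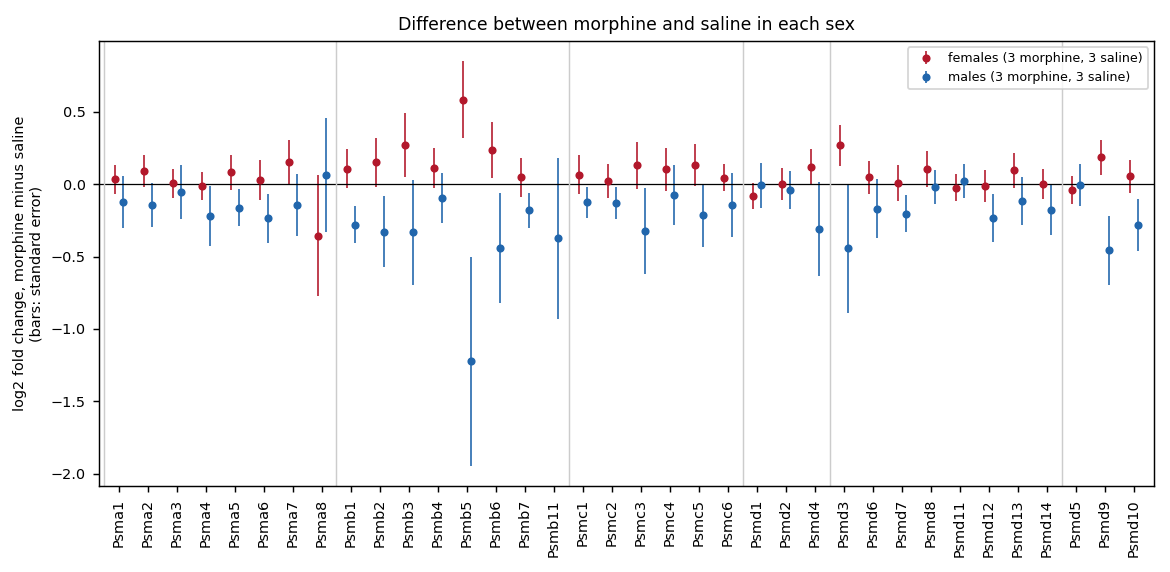
Log2 fold change (morphine minus saline) of each member in females and in males, with bars of 1 standard error from edgeR's fit; genes are in the order of their roles, divided by grey lines, and Psmb11 was tested only in males. Most values in females lie just above 0 and most in males below 0, and the bars of Psmb5 are by far the longest in males among the well-counted members.

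In males, 0 of 36 members were called, beside 2.99% of 18166 genes, and the count was also 0 at an unadjusted p under 0.05 alone and with DESeq2 and exactTest. All but 2 members lay below 0, Psma8 and Psmd11 being the exceptions. The median log2 fold change of the members was -0.17, beside -0.06 over all genes tested. With scaling by total counts the median over all genes moved up by 0.13 and that of the members became -0.05 with 25 of 36 below 0. The members lay 0.11 below all genes under either scaling. A change of scaling shifts all genes nearly alike, so it cannot test that gap. Without the library labelled morphine male 6 the median was -0.18, with 33 of 36 below 0, and 0 members were called. Among the lists of cell type markers and of other genes, those of nuclear long noncoding RNAs and of cerebellar granule cells did not overlap between the groups of males. All the remaining lists overlapped. For single genes, the groups of males did not overlap in 9.1% of all genes tested. The 5 nuclear long noncoding RNAs summed to 4432 to 5672 CPM in saline and 6761 to 8016 CPM in morphine males, and the 3 markers of cerebellar granule cells to 21.9 to 24.2 CPM and 32.1 to 64.3 CPM. Their part in the values of the subunits was not tested. Medians by role were -0.33 in the beta ring, -0.28 in the chaperones, -0.17 in the lid, -0.14 in the alpha ring and in the ATPases, and -0.04 in the other base subunits. Without the library labelled morphine male 6 the median of the beta ring was -0.50 and that of the other base subunits -0.10, and the other 4 roles lay between -0.26 and -0.14.

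The groups of males did not overlap for 4 members, all lower with morphine, beside 9.1% of all genes tested whose groups did not overlap in either direction and 4.06% of all genes tested that were lower in that way. Without the library labelled morphine male 6, which leaves 3 against 2, it was 8 members, these 4 with Psma5, Psmb1, Psmd7 and Psmd9, beside 6.41% of all genes lower in that way. Psmc1, an ATPase, had 182, 175 and 167 CPM in saline males and 158, 160 and 163 CPM in morphine males, a log2 fold change of -0.13 (SE 0.11). For Psmc2, another ATPase, values were 134, 126 and 125 CPM in saline and 117, 117 and 118 CPM in morphine males, with a log2 fold change of -0.13 (SE 0.11). The gap between the groups was thus a few CPM in both genes. Psmb7 had 129, 136 and 153 CPM in saline and 127, 124 and 120 CPM in morphine males, a log2 fold change of -0.18 (SE 0.12). The chaperone Psmd10, an X-linked gene, had 16.2, 16.2 and 21.5 CPM in saline and 14.7, 15.6 and 14.3 CPM in morphine males, and its value was -0.28 (SE 0.18). None of the 4 passed the test.

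The spread among saline males was wide for the GC-rich members that varied most. It was small for Psmd7 and Psmd8, also GC-rich, with SDs of log2 levels of 0.13 and 0.08. Psmb5 was at 33.9, 34.8 and 3.86 CPM in saline males and at 8.98, 7.34 and 14.6 CPM in morphine males. Saline male 3 lay below every morphine male and the other 2 above them, so the log2 fold change of -1.22 carried an SE of 0.72 (edgeR adjusted p = 1.00). It was -1.58 (SE 0.86) without the library labelled morphine male 6. Gm3375 had the same order, with 19.2, 20.1 and 5.48 CPM in saline and 11.4, 8.98 and 14.9 CPM in morphine males. Counted together, the 2 genes gave -0.82 (SE 0.60). Psmb6 had 116, 113 and 39.8 CPM in saline and 64.0, 56.3 and 78.0 CPM in morphine males, a log2 fold change of -0.44 (SE 0.38), and Psmd3 had 98.7, 104 and 28.6 CPM against 50.8, 48.2 and 70.8 CPM, also -0.44 (SE 0.45). Leaving saline male 3 out, 11 members were called lower, 7 of them with an adjusted p under 0.05 (Psmb2, Psmb5, Psmb6, Psmc3, Psmd3, Psmd4 and Psmd9), while 28.6% of all genes tested were called in that fit.

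**Figure D5:**
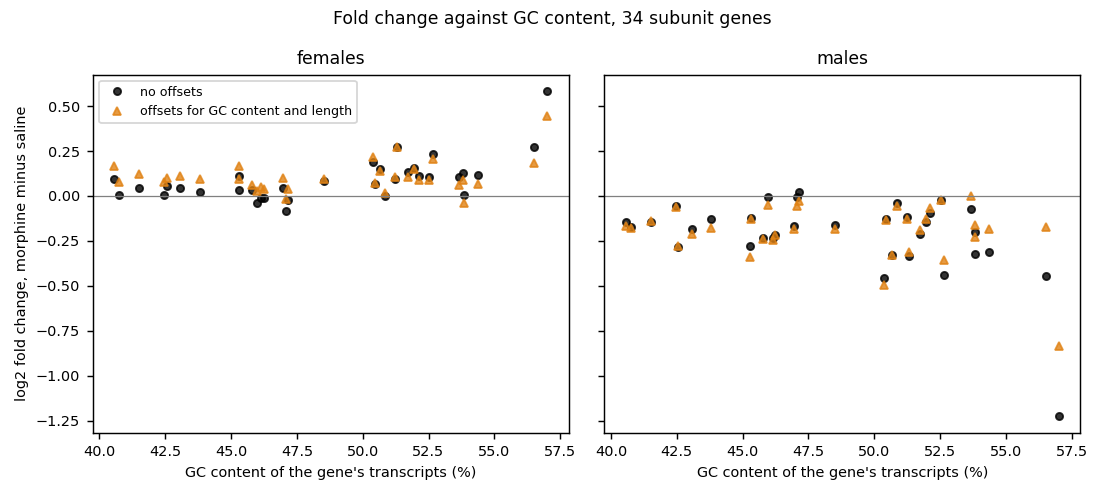
Log2 fold change (morphine minus saline) against the GC content of the gene's transcripts for the 34 well-counted members, in females and in males, from the fit without offsets (black) and with loess offsets for GC content and length (orange). In males the value of Psmb5, at 57.0% GC, moved from -1.22 to -0.83 and that of Psmd3, at 56.5%, from -0.44 to -0.17, whereas GC-poor members moved little.

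GC-rich members lay farther from 0 than GC-poor members in both sexes, and so did GC-rich genes of the whole table in males. Of the members above the median GC content, 17 of 17 tested were above 0 in females, with a median log2 fold change of 0.13 (0.06 over all genes in that range), and 18 of 18 were below 0 in males, with a median of -0.26 (-0.12 over all genes in that range). Of those at or below the median, 12 of 18 were above 0 in females (median 0.03, beside -0.05 over all genes in that range) and 16 of 18 were below 0 in males (median -0.15, beside -0.02 over all genes in that range). Both classes were measured in the same mice, so these counts are not independent. Loess offsets for GC content and transcript length left the median of all members at 0.09 in females and -0.18 in males. With them 2 members were called lower in males, beside 7.26% of all genes, the chaperones Psmd9 (-0.50, SE 0.19) and Psmd10 (-0.28, SE 0.10). Over the 12 libraries such offsets hardly changed the median spread of log2 levels, but single members moved in both directions. The median SD of the 34 well-counted members was 0.188 without and 0.186 with them. The SD fell in 20 members and rose in the others. It fell from 0.935 to 0.622 for Psmb5 and from 0.535 to 0.238 for Psmd3, both GC-rich. Among GC-poor members, it rose from 0.125 to 0.242 for Psmc2 and from 0.177 to 0.246 for Psmb7. It fell from 0.205 to 0.136 for Psmc6, also GC-poor. For Psmd10 it rose from 0.169 to 0.197. Without the library labelled morphine male 6 and with no offsets, the medians in males were -0.38 above the GC median (18 of 18 below 0, -0.19 over all genes in that range) and -0.12 at or below it (15 of 18 below 0, 0.03 over all genes). With the GC slope of each library as a covariate, a choice made after seeing the data, 6 members were called lower in males (Psma4, Psma6, Psmb5, Psmd9, Psmd10 and Psmd12) with changes between -0.26 and -0.43, and 9 had an adjusted p under 0.05, but so did 1099 of 18817 genes, and 11.0% of all genes were called. The covariate is itself estimated from the same 6 libraries.

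The test of the difference between sexes (the log2 fold change of males minus that of females) called 1 of 36 members, Psmd9, beside 2.94% of 19027 genes. Psmd9 encodes a chaperone of base assembly. It had 14.1, 16.04 and 13.0 CPM in saline females, 16.1, 17.6 and 15.4 CPM in morphine females, 23.9, 25.0 and 14.6 CPM in saline males and 14.4, 13.9 and 18.1 CPM in morphine males. Saline males 1 and 2 were the 2 highest of the 12 libraries, and saline male 3 lay with the morphine males. The difference was -0.63 (SE 0.28, edgeR adjusted p = 0.985), made of 0.19 (SE 0.12) in females and -0.46 (SE 0.24) in males, neither of which was called. Without the library labelled morphine male 6, Psmd9 was still called and Psmb5 joined it, beside 3.39% of all genes, and without saline male 3 there were 11 called members beside 24.1% of all genes. The call of Psmd9 also held without saline female 5 and was lost without any 1 of the other 9 libraries (-0.67 to -0.50) and with scaling by total counts. With loess offsets for GC content and length the value was -0.71 (SE 0.23). Psmb5 had the largest difference of all members, -1.80 (SE 0.84, edgeR adjusted p = 0.985), and Psma8 the most positive, 0.44 (SE 0.59). The median over the members was -0.20, beside -0.03 over all genes, and 32 of 36 were below 0.

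Genes around the proteasome were read from a list of 32 related genes, all of which were tested. The list holds the immunoproteasome, activators, assembly factors, other bound subunits, shuttle receptors, Nfe2l1 and its relatives, and the unfoldase Vcp with its cofactors. In the sex-combined comparison 0 of 32 were called (1.19% of all genes), in females 1 (1.81%), in males 1 (2.99%) and in the difference between sexes 2 (2.94%). Adrm1, a ubiquitin receptor of the base, was called higher in females, with 16.2, 13.7 and 11.2 CPM in saline and 19.4, 15.4 and 19.3 CPM in morphine females (log2 fold change 0.39, SE 0.15), and its transcripts are GC-rich (57.1%). Sem1, a small subunit of the lid that the naming rule does not reach, was called lower in males, with 57.6, 55.7 and 45.0 CPM in saline and 36.3, 39.6 and 40.6 CPM in morphine males (log2 fold change -0.45, SE 0.14). Those groups did not overlap, and unlike the subunits that varied most, Sem1 is GC-poor (40.6%). It was also called in the difference between sexes (-0.59, SE 0.19). Sem1 was still called in males (-0.49, SE 0.19) and in the difference between sexes (-0.62, SE 0.22) without the library labelled morphine male 6, and Adrm1 then joined the calls in the difference (-1.18, SE 0.52). The edgeR adjusted p was 1.00 for the calls in females and in males and 0.985 for those in the difference between sexes.

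The inducible catalytic subunits of the immunoproteasome were low or variable. Psmb8 and Psmb9 had means of 0.57 ± 0.176 and 0.584 ± 0.216 CPM (SD, n = 12). Psmb10 had 24.8, 25.7 and 3.95 CPM in saline males and 6.93, 6.62 and 10.6 CPM in morphine males. Saline males 1 and 2 were thus high and saline male 3 low, as for Psmb5. Psmb10, which takes the place of Psmb7 (43.1% GC) in the immune core, is GC-rich (58.3%). Its difference between sexes was called (-1.62, SE 0.73, edgeR adjusted p = 0.985). Pomp, which guides assembly of the beta ring, had a log2 fold change of 0.05 (SE 0.10) in the sex-combined comparison and ranged from 78.3 to 115 CPM. Nfe2l1, with transcripts of 54.4% GC, had 407, 396 and 204 CPM in saline males against 289, 266 and 324 CPM in morphine males. Its log2 fold change was -0.20 (SE 0.26) in males and 0.10 (SE 0.11) in females, and it was not called in any comparison.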

How the data were processed

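The deposited file holds, per gene, the read counts that the authors obtained by trimming 100-base single-end reads of poly-A RNA with Trimmomatic, aligning them to mm10 with STAR and counting exons with featureCounts. Treatment, sex and replicate came from the labels. Dam, a covariate of the study, was not in the labels and was not used here. Genes were matched to GENCODE on GRCm38 for exon length (all annotated exons of a gene joined) and GC content.

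Counts were fitted over all genes with edgeR 4.0.16 (R 4.3.3; TMM, filterByExpr, quasi-likelihood test): 12 libraries with sex as a covariate, each sex by itself, and treatment by sex in 1 fit for the difference between sexes. Standard errors were the absolute log2 fold change over the square root of F. Single-library levels are CPM with TMM factors over 12 libraries. Transcripts were compared with blastn 2.17.0. The steps were tested on simulated data. Alternatives included DESeq2 1.42.0, exactTest, scalings, filters, GC offsets and left-out libraries. P-values measure the spread between mice.

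The members and gene lists were chosen with earlier results of these data known. Named genes were the catalytic subunits, every called gene, the extremes of each comparison, the highest and lowest level of each role, and Psmb8, Psmb9, Psmb10, Pomp and Nfe2l1. Others, such as Psmb3, Psmd3, Psmd11, Psmc1 and the genes of near-identical or overlapping sequence, were named after their values were seen.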

Additional observations from a re-analysis of the deposited data

Results flagged for a closer look

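Each group of 6 (saline, morphine) was screened for a library far from the others by Dixon's criterion in 78 sets of values, and 5 were found, where chance gives about 1 in 20. Morphine female 3 was the highest morphine library by such a gap for Psmc1 (216 CPM), Psmc2 (152 CPM), Psmd8 (119.8 CPM) and Psmd12 (135 CPM), and it was the highest of the 12 libraries for 11 of the 36 members. It had the lowest total count, 27850565, and a GC slope of 0.05. Saline male 3 was the highest saline library for Psmd10 (21.5 CPM). It was the highest of the 12 libraries for 9 members and the lowest for 7.

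The difference between sexes (log2 fold change of males minus that of females) was called for Psmd9 (-0.63), Psmb10 (-1.62) and Sem1 (-0.59), each with an edgeR adjusted p of 0.985. Saline males 1 and 2 were the 2 highest libraries for all 3 genes.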

How the results depend on the processing

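Counts of called members depended on single libraries and on the treatment of GC content. Leaving out each library in turn, the members called ranged from 0 to 0 in the sex-combined comparison, from 0 to 5 in females (highest without saline female 4), from 0 to 11 in males and from 0 to 11 in the difference between sexes (both highest without saline male 3), and all genes called from 177 to 458, from 208 to 1482, from 253 to 5341 and from 290 to 4695. Among the other settings, members called moved in the sex-combined comparison to 3 without the 3 libraries with the largest GC slopes. In females they moved to 1 with total counts, DESeq2 or exactTest and to 3 with no filter. In males they became 1 with no filter or the contrast from all 12 libraries, 2 with GC and length offsets and 6 with the GC slope as a covariate. In the difference between sexes they became 0 with total counts, 2 with no filter or the offsets and 4 with the covariate. All genes called were 221 in the sex-combined fit and moved to 754 (no filter), 332 (offsets), 426 (covariate) and 1781 (without those 3 libraries). They were 328 in females and moved to 1094 (no filter), 218 (contrast from 12 libraries) and 497 (covariate), 543 in males and moved to 985 (no filter), 1319 (offsets) and 2071 (covariate), and 559 for the difference and moved to 1665 (no filter), 1186 (offsets) and 1529 (covariate). Total counts raised the share of higher calls from 51.1% to 72.7% (sex-combined), 64.3% to 91.3% (males) and 54.7% to 81.2% (difference), and put 20 of 36 members above 0 in the sex-combined fit. The median of the members moved from that of the main fit by less than the spread between replicates (0.15) in all 76 alternatives. That limit is wider than the main medians of the sex-combined fit (-0.03) and of females (0.06). A turn of sign therefore also passes it, as in females without morphine female 3 (-0.04). Without the 3 libraries with the largest GC slopes, Psmb5 (0.71), Psmb6 (0.33), Adrm1 (0.41) and Psmb10 (0.54) turned from below to above 0 in the sex-combined fit. The cause of these moves was not tested. Correlations between same-numbered libraries ran from -0.48 to 0.21. Those libraries are of opposite sex and differ in GC slope, so these values cannot show whether replicate numbers paired the mice. With the replicate block 0 members were called, their median was -0.02 and 204 genes were called in all. Counts near 0 limit Psma8 and Psmb11.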
